A study of Mus musculus with 6 samples.

Results

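The 33 genes described here encode the route of glucose through an activated T cell: its uptake, glycolysis, the fate of pyruvate and lactate, and the pentose phosphate pathway. They were taken by symbol from a table of 23420 genes measured by RNAseq in activated primary mouse CD4+ T cells, and all 33 were present. The rule used gene symbols and no measured values. The cells were splenic CD4+CD62L+ cells, which are naive helper T cells, magnetically purified from Balb/c mice aged 12 weeks and activated on plates with antibodies to CD3 and CD28. Lentivirus carrying an shRNA was added 24 h later, the cells were fed with medium and IL-2 after a further 24 h, and they were harvested 48 h after that. There were 2 libraries in each of 3 groups. The harmine group carried a non-targeting (scramble) shRNA and received 3.7 µM harmine at feeding, the *Dyrk1a* shRNA group carried an shRNA to *Dyrk1a* without harmine, and the control group carried the scramble shRNA without harmine. Harmine is a plant alkaloid that inhibits DYRK kinases and also monoamine oxidase A and CDC-like kinases, and DYRK1A is a kinase that phosphorylates NFAT transcription factors. Every group had thus been activated and exposed to virus, and none received polarizing cytokines. The addition of IL-2 is that of the sample labels, whereas the methods of the study describe such neutral cultures as fed without it, so whether the cells received IL-2 is uncertain. No source used here gives the share of cells that carried an shRNA, or says that the replicates came from separate mice or cultures, so the p-values measure only the spread between these libraries, which may be technical.

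Glucose enters T cells through facilitative transporters, is phosphorylated by hexokinase and is split by aldolase in upper glycolysis into triose phosphates. Lower glycolysis then yields ATP and pyruvate, which lactate dehydrogenase turns into lactate for export. The oxidative arm of the pentose phosphate pathway draws glucose-6-phosphate off to make NADPH, and its non-oxidative arm exchanges sugar phosphates between ribose, needed for nucleotides, and glycolysis. Naive T cells that are activated through the antigen receptor and CD28 are known to take up more glucose and to secrete lactate even in oxygen, and the enzymes of this route are induced by MYC, by mTORC1 signalling and by hypoxia-inducible factors.

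The libraries held 3441063 and 3747648 counts in the harmine group, 2678872 and 3274050 in the *Dyrk1a* shRNA group and 1743428 and 1096345 in the control group, so the controls were the shallowest. The 33 genes took 3.40 and 3.10% of these counts with harmine, 3.93 and 3.39% with *Dyrk1a* shRNA and 2.73 and 3.08% in the controls. All 16 markers of CD4 T cell identity that were examined were measured, with summed levels of 5223 to 5628 CPM (counts scaled to a common library size) in every library. *Dyrk1a* itself, the target of the knockdown, had 74.8 and 77.6 CPM with harmine and 60.2 and 61.9 CPM with *Dyrk1a* shRNA, against 58.4 and 82.7 CPM in the controls. Its log2 fold change was -0.19 (SE 0.21) for *Dyrk1a* shRNA against control (adjusted p = 0.835, edgeR), so that a loss of its mRNA was not detected. Control replicate 1 was the highest library for the markers of every other cell type examined. For B cells they summed to 208 to 274 CPM in the other libraries and to 327 CPM in this one, for CD8 T and NK cells to 46.4 to 56.3 and to 75.3 CPM, and for erythroid cells and platelets to 19.7 to 26.2 and to 34.5 CPM. Of the myeloid markers 14 of 15 listed were in the table, none was at 0 in all libraries, and they summed to 222 and 214 CPM with harmine and 236 and 206 CPM with *Dyrk1a* shRNA, against 380 and 206 CPM in the controls. The part of these cells in the values of the pathway was not tested. In bulk RNA a change in the number of cells of a type cannot be told apart from a change in RNA per cell.

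All 33 genes had enough counts to be tested. None passed an adjusted p of 0.05 in any of the 3 comparisons (edgeR's quasi-likelihood test, Benjamini-Hochberg adjustment over 10607 genes), where 0.00943% of all tested genes passed for harmine against control, 0.0189% for *Dyrk1a* shRNA against control and 0.00943% for *Dyrk1a* shRNA against harmine. The Wald test of DESeq2 called none of them either, with 0, 2 and 0 of the 33 at an unadjusted p under 0.05 in the same order of comparisons. With harmine 1 of the 33 was higher and 1 was lower at an unadjusted p under 0.05, beside 2.22% and 3.07% of all tested genes. With *Dyrk1a* shRNA again 1 was higher and 1 was lower than in the controls, beside 3.10% and 4.59%, and between *Dyrk1a* shRNA and harmine none was, beside 2.91% higher and 2.82% lower among all tested genes. The values below therefore describe levels and directions, with their error, and not changes that passed a test.

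With harmine, 21 of the 33 genes had a log2 fold change above 0, with a median of 0.036, against 47.5% and a median of -0.019 over all tested genes. With *Dyrk1a* shRNA, 25 of the 33 lay above the controls, with a median of 0.23, where the median of all tested genes was -0.013 and 48.3% lay above 0. Without *Dyrk1a* shRNA replicate 1 that median was 0.14. Between *Dyrk1a* shRNA and harmine, 27 of the 33 lay on the higher side, at a median of 0.17 (all tested genes 49.9% and -0.001), and the median was 0.043 without *Dyrk1a* shRNA replicate 1. Both comparisons with the controls share the same 2 control libraries. In the *Dyrk1a* shRNA comparison all 11 genes of upper glycolysis and 7 of 8 genes of lower glycolysis lay above 0, with medians of 0.29 each, but 0 of 3 genes of the oxidative and 1 of 4 of the non-oxidative pentose phosphate arm did. Of upper glycolysis, 10 of 11 lay above 0 with the GC trend removed (median 0.15) and 9 with GC and length trends removed (0.12), and 9 to 11 when 1 library was left out. Of lower glycolysis 7 of 8 remained after either removal and 6 or 7 when 1 library was left out, with medians of 0.19 in upper and 0.15 in lower glycolysis without *Dyrk1a* shRNA replicate 1. With harmine, 7 of 11 and 5 of 8 glycolytic genes and again 0 of 3 oxidative genes lay above 0. Part of the shift with *Dyrk1a* shRNA moved with the GC content of the transcripts, as described below.

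**Figure D1:**
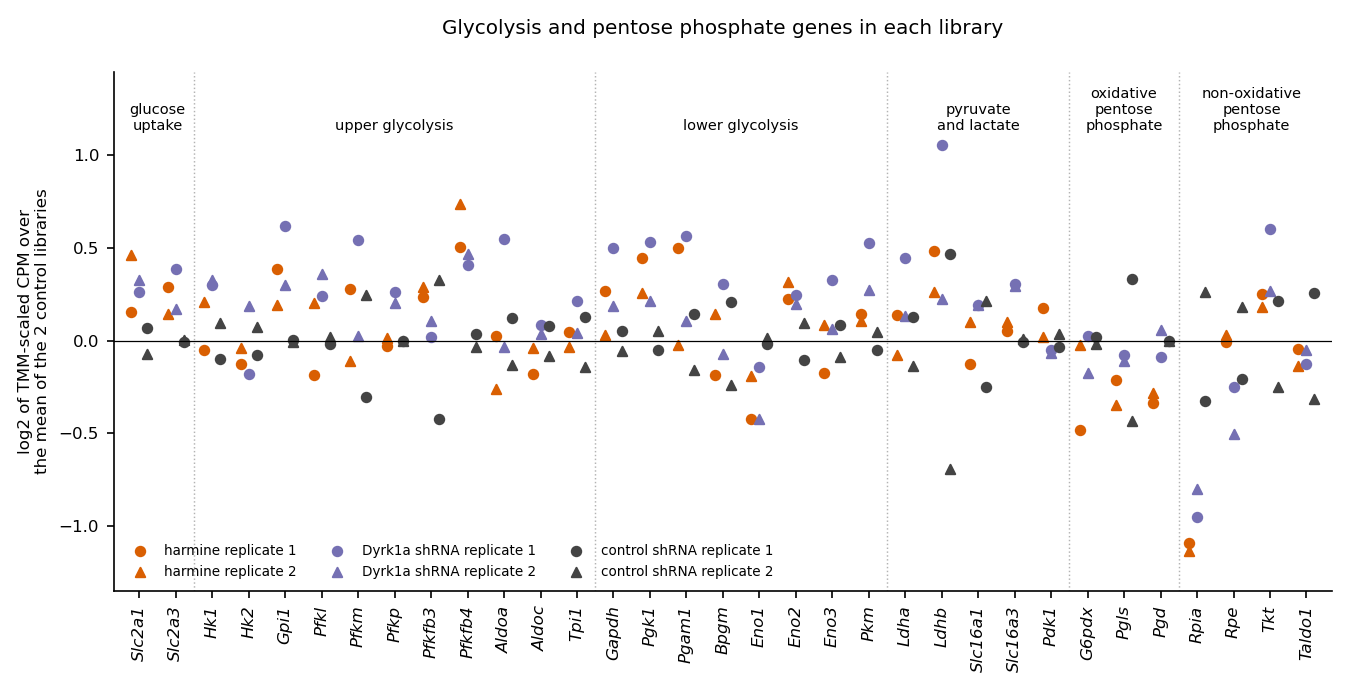
Log2 of the CPM of each of the 33 genes in each of the 6 libraries over the mean of the 2 control libraries, by gene and pathway section. Harmine is orange, *Dyrk1a* shRNA violet and control grey, with circles for replicate 1 and triangles for replicate 2. Most glycolytic genes had their highest value in *Dyrk1a* shRNA replicate 1, and *Rpia* lay below both controls in all 4 libraries with harmine or *Dyrk1a* shRNA.

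With 2 libraries a group, the simplest reading of a level is whether both libraries of a group lay beyond both of the other. With harmine 8 of the 33 genes lay above both controls and 4 below, where 16.4% and 15.9% of all tested genes did. With *Dyrk1a* shRNA 14 lay above and 4 below both controls, against a background of 18.5% and 16.9%. Against harmine, *Dyrk1a* shRNA had 11 genes above and 4 below, with backgrounds of 20.2% and 20.8%. When isozymes of the same step were summed, the 23 steps of the route showed 5 higher, 3 lower and 15 overlapping for harmine against control, 10, 3 and 10 for *Dyrk1a* shRNA against control, and 8, 3 and 12 for *Dyrk1a* shRNA against harmine. Most steps hold a single gene, so these counts largely repeat those of the genes. No background was computed for sums of genes.

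Glucose uptake lay above the controls in both treatments, within the error. *Slc2a3*, which encodes the high-affinity transporter GLUT3, had 1649 and 1489 CPM in the harmine libraries, 1762 and 1515 CPM in the *Dyrk1a* shRNA libraries, and 1342 and 1351 CPM in the control libraries. Its log2 fold change was 0.22 (SE 0.25) with harmine and 0.28 (SE 0.25) with *Dyrk1a* shRNA, and both control libraries, which differed little, lay below all other libraries. *Slc2a1*, the gene of the activation-induced transporter GLUT1, had 236 and 293 CPM in harmine, 255 and 266 CPM in *Dyrk1a* shRNA and 223 and 202 CPM in control libraries, again with both controls lowest, and log2 fold changes of 0.32 (SE 0.19) with harmine and 0.29 (SE 0.19) with *Dyrk1a* shRNA. Per kilobase of transcript *Slc2a3* made up 80.7 to 85.2% of the level of this pair in the 6 libraries.

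In upper glycolysis the hexokinases come first, which trap glucose in the cell as glucose-6-phosphate. *Hk1* had 247 and 295 CPM with harmine and 315 and 321 CPM with *Dyrk1a* shRNA, against 239 and 273 CPM in the controls. It was higher in both *Dyrk1a* shRNA libraries than in any other (log2 fold change 0.32 (SE 0.18) against control and 0.23 (SE 0.18) against harmine), while harmine and control overlapped. *Hk2*, the inducible hexokinase, lay between 90.8 and 117 CPM in all libraries with log2 fold changes of -0.077 with harmine and 0.022 with *Dyrk1a* shRNA. *Gpi1*, the isomerase that makes fructose-6-phosphate, had 1344 and 1174 CPM in the harmine libraries, 1578 and 1265 CPM in the *Dyrk1a* shRNA libraries, and 1031 and 1024 CPM in the control libraries. Both treatments lay above both controls, with a log2 fold change of 0.29 (SE 0.25) for harmine and 0.47 (SE 0.25) for *Dyrk1a* shRNA, the third smallest p of the 33 in that comparison (adjusted p = 0.679, edgeR).

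Phosphofructokinase commits fructose-6-phosphate to glycolysis, and its 3 genes encode the platelet, liver and muscle isozymes. *Pfkp* had 314 and 323 CPM in harmine, 383 and 368 CPM in *Dyrk1a* shRNA and 319 and 319.9 CPM in control libraries. *Pfkl* had 171 and 224 CPM with harmine and 229.9 and 250.3 CPM with *Dyrk1a* shRNA, against 192 and 198 CPM in the controls. For both genes the *Dyrk1a* shRNA libraries lay above all others, with log2 fold changes against control of 0.23 (SE 0.18) for *Pfkp* and 0.30 (SE 0.19) for *Pfkl*, and harmine overlapped with control. The counts of *Pfkp* include a stretch of 748 exonic bases shared with *Pitrm1* on the opposite strand, which the library kit does not tell apart, but *Pfkp* took 93.6 to 95.9% of the counts of the pair. *Pfkm* ranged over 56.5 to 102 CPM without separation of groups. Fructose-2,6-bisphosphate, the allosteric activator of phosphofructokinase, is made by the enzymes that *Pfkfb3* and *Pfkfb4* encode. *Pfkfb3* had 187 and 194 CPM in the harmine libraries, 161 and 171 CPM in the *Dyrk1a* shRNA libraries, and 119 and 199 CPM in the control libraries, and the controls alone spanned the values of both other groups. *Pfkfb4*, a gene of few counts (17 to 93 per library), had 20.9 and 24.6 CPM in harmine, 19.5 and 20.3 CPM in *Dyrk1a* shRNA and 15.1 and 14.3 CPM in control libraries. It was the one gene of the 33 above the controls at an unadjusted p under 0.05 with harmine (log2 fold change 0.62 (SE 0.29), 95% interval 0.02 to 1.23, adjusted p = 0.928, edgeR), and its log2 fold change with *Dyrk1a* shRNA was 0.44 (SE 0.29).

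Promoters of the 3 genes with the smallest unadjusted p against control are shown, since they are the genes at which the treatments came nearest to a difference, each from 250 bases before to 50 after the annotated start (RefSeq, GRCm38.p6). Capitals mark GGGCGG on either strand, the core of the GC box bound by Sp1, where it reads as CCGCCC on the other strand. CACGTG, the E-box bound by MYC, does not occur in these 3 windows. Of both forms of the hypoxia response element core, ACGTG does not occur in them, whereas GCGTG, searched after these values were known, occurs once in each on one strand or the other.
Pfkfb4 (chr9:108991652-108991951, plus strand): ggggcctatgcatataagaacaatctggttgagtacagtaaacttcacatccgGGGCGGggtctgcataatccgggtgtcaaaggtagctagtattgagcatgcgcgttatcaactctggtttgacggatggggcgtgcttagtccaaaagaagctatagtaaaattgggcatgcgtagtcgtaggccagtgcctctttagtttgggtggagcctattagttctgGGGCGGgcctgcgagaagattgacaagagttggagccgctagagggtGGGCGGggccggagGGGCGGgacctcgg
Rpia (chr6:70792126-70792425, minus strand): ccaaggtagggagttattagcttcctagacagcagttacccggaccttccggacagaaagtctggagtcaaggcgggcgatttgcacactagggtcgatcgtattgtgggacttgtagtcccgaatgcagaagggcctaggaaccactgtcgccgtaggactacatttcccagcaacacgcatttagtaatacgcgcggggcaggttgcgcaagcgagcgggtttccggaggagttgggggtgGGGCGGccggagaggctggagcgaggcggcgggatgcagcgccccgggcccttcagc
Tkt (chr14:30548881-30549180, plus strand): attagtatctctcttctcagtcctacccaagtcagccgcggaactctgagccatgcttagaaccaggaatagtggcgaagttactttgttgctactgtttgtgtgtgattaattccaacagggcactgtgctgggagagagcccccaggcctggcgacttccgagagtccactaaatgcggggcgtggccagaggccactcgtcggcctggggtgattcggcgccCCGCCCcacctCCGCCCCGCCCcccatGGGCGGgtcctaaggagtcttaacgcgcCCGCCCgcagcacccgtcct
Promoters were found for 32 of the 33 genes. GGGCGG occurred in 24 of them (75.0%), against 35.9% of 27025 promoters of the same length, ACGTG in 12 (37.5%, against 19.7%), some of which are part of a CACGTG motif, GCGTG in 19 (59.4%, against 32.5%) and CACGTG in 3 (9.38%, against 7.24%), namely *Pfkm*, *Ldha* and *Slc16a1*. A match is a run of letters and not a bound site. The first listed promoter of each gene was used, and the comparison promoters were not matched for GC content or expression. Whether the higher shares are particular to these genes was thus not tested. The promoter of *Pfkfb4* held 4 GC boxes and that of *Tkt* held 5, while that of *Rpia* held 1.

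The cleavage steps were abundant and variable. *Aldoa*, the aldolase that splits fructose-1,6-bisphosphate, had 2712 and 2223 CPM with harmine and 3902 and 2606 CPM with *Dyrk1a* shRNA, against 2897 and 2434 CPM in the controls. *Dyrk1a* shRNA replicate 1 stood above the other 5 libraries, which left the groups overlapping in every comparison (log2 fold change 0.40 (SE 0.30) for *Dyrk1a* shRNA against harmine, and 0.080 without *Dyrk1a* shRNA replicate 1). *Aldoc* made up 3.03 to 4.79% of the aldolase level per kilobase and had log2 fold changes of -0.11 with harmine and 0.059 with *Dyrk1a* shRNA. *Tpi1*, which interconverts the triose phosphates, had 1455 and 1377 CPM in the harmine libraries, 1633 and 1450.3 CPM in the *Dyrk1a* shRNA libraries, and 1539.7 and 1277 CPM in the control libraries, with all groups overlapping and log2 fold changes of 0.0073 and 0.13 in the same order of treatments.

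Lower glycolysis held the genes with the most counts. *Gapdh*, which oxidises glyceraldehyde-3-phosphate and is often used as a reference gene, had 7739 and 6560.3 CPM in harmine, 9085 and 7316 CPM in *Dyrk1a* shRNA and 6674 and 6181 CPM in control libraries. Both *Dyrk1a* shRNA libraries lay above both controls (log2 fold change 0.35 (SE 0.32)), but the harmine libraries overlapped with the controls (0.15 (SE 0.32)). *Pgk1*, the first ATP-forming step, had 8267 and 7262 CPM with harmine and 8772 and 7038 CPM with *Dyrk1a* shRNA, against 5856 and 6283 CPM in the controls. Both treatments exceeded both controls here, with log2 fold changes of 0.36 (SE 0.32) for harmine and 0.38 (SE 0.32) for *Dyrk1a* shRNA. *Pgam1*, phosphoglycerate mutase, had 3152 and 2188 CPM in the harmine libraries, 3286 and 2391 CPM in the *Dyrk1a* shRNA libraries, and 2458 and 1993 CPM in the control libraries, with a wide spread within each group and overlap in every comparison. *Bpgm*, whose product makes the bisphosphoglycerate known best from red cells, was near the bottom of the group with 15.8 and 19.8 CPM in harmine, 22.2 and 17.1 CPM in *Dyrk1a* shRNA and 20.7 and 15.2 CPM in control libraries.

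Enolase, which forms phosphoenolpyruvate, showed how the counting of reads can set a value. *Eno1* encodes the enolase of most tissues and *Eno2* the form first described in neurons. *Eno2* had 418 and 446 CPM with harmine and 425 and 411 CPM with *Dyrk1a* shRNA, against 333 and 382 CPM in the controls, above both controls in both treatments (log2 fold change 0.27 (SE 0.19) with harmine and 0.22 (SE 0.19) with *Dyrk1a* shRNA). *Eno1* had 157 and 184 CPM in the harmine libraries, 191 and 157 CPM in the *Dyrk1a* shRNA libraries, and 208 and 213 CPM in the control libraries. It was thus below both controls in both treatments, with log2 fold changes of -0.30 (SE 0.19) and -0.28 (SE 0.19), the one gene of lower glycolysis on that side with *Dyrk1a* shRNA. A near-identical gene on another chromosome, *Gm5506*, aligned with *Eno1* over 1736 bases at 99.482% identity, with 9 differing bases, of which 8 fell within the 1302 coding bases. The stretch below, coding bases 667 to 816 of *Eno1* (gene at chr4:150236721-150248879 on GRCm38, plus strand, read from the GENCODE transcript), is shown to make plain how little separates the copies: capitals mark the 4 bases that differ, and a read that covers none of them fits both genes.
Eno1: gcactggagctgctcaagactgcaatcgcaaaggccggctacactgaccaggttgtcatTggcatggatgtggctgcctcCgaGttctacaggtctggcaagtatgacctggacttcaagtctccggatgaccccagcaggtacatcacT
*Gm5506* had 1695 and 1636 CPM in harmine, 2126 and 1885 CPM in *Dyrk1a* shRNA and 1931 and 1473 CPM in control libraries, so *Eno1* took only 8.48 and 10.1% of the counts of the pair with harmine and 8.24 and 7.68% with *Dyrk1a* shRNA, against 9.70 and 12.6% in the controls. The sum of both was 1852 and 1821 CPM with harmine and 2317 and 2042 CPM with *Dyrk1a* shRNA, against 2139 and 1686 CPM in the controls. Summed, the groups overlapped against control, and the log2 fold changes became -0.059 with harmine and 0.19 with *Dyrk1a* shRNA. The level and direction of *Eno1* alone are therefore uncertain. *Eno3* stayed between 26.2 and 37.2 CPM.

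**Figure D2:**
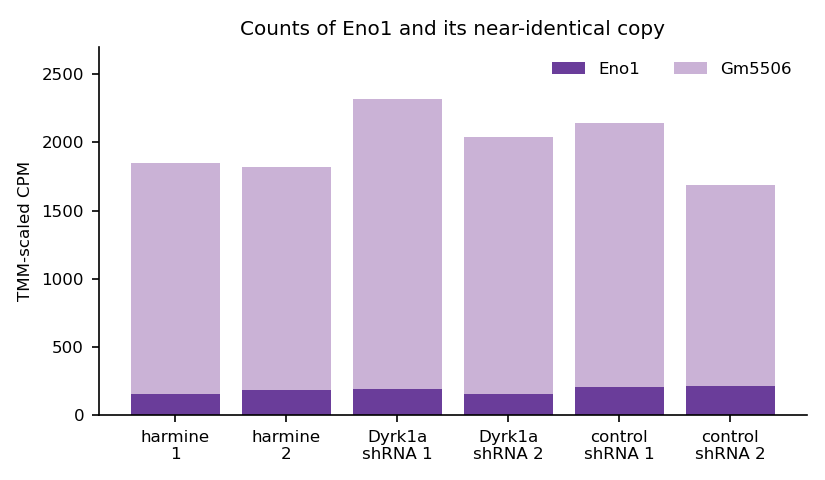
Stacked bars of the CPM of *Eno1* (dark) and of its near-identical copy *Gm5506* (light) in each library, harmine first and control last. The copy took most of the counts in all 6 libraries, and the summed height was between 1686 and 2317 CPM with no separation of either treatment from the controls.

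*Pkm*, pyruvate kinase, closes glycolysis. It had 3116 and 3031 CPM in the harmine libraries, 4052 and 3408 CPM in the *Dyrk1a* shRNA libraries, and 2722 and 2911 CPM in the control libraries, so that both treatments lay above both controls and *Dyrk1a* shRNA above harmine, with a log2 fold change of 0.13 (SE 0.28) for harmine and 0.41 (SE 0.28) for *Dyrk1a* shRNA. The counts are per gene and do not tell its M1 and M2 splice forms apart.

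Of the genes for pyruvate and lactate, *Ldha*, which reduces pyruvate to lactate, had 1948 and 1675 CPM in harmine, 2407 and 1941 CPM in *Dyrk1a* shRNA and 1927 and 1606 CPM in control libraries. The lower *Dyrk1a* shRNA library lay just above the higher control (log2 fold change 0.30 (SE 0.27)) and harmine overlapped with the controls (0.036 (SE 0.27)). *Ldha* made up 98.4 to 99.3% of the lactate dehydrogenase level per kilobase. *Ldhb*, with 10 to 74 counts per library, had the highest log2 fold change of the 33 with *Dyrk1a* shRNA, 0.62 (SE 0.38), but its controls were 18.8 and 8.44 CPM and its groups overlapped. This value was 0.17 when *Dyrk1a* shRNA replicate 1 was left out, and 1.35 and 0.21 when control replicate 1 or 2 was. Lactate leaves the cell through MCT4, encoded by *Slc16a3*, and MCT1, encoded by *Slc16a1*. *Slc16a3* had 282 and 291 CPM with harmine and 336 and 334 CPM with *Dyrk1a* shRNA, against 269.9 and 273 CPM in the controls. Replicates of this gene differed little, every *Dyrk1a* shRNA library lay above every other, and the log2 fold change was 0.30 (SE 0.18) against control and 0.23 (SE 0.17) against harmine, with harmine itself at 0.076 (SE 0.18) against control. *Slc16a1* made up 9.11 to 12.0% of the pair per kilobase and overlapped with the controls in both treatments. *Pdk1*, whose kinase keeps pyruvate out of the mitochondrial dehydrogenase, had 417 and 374 CPM in the harmine libraries, 357 and 353 CPM in the *Dyrk1a* shRNA libraries, and 360.3 and 378 CPM in the control libraries and was the one gene of this section below both controls with *Dyrk1a* shRNA, by a log2 fold change of -0.057 (SE 0.19).

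The 3 genes of the oxidative pentose phosphate arm all had log2 fold changes under 0 with both treatments, but this common direction depended on single libraries. With *Dyrk1a* shRNA, *Pgls* was at 0.33 without control replicate 1, *Pgd* at 0.059 without *Dyrk1a* shRNA replicate 1 and *G6pdx* at 0.018 without *Dyrk1a* shRNA replicate 2, and with harmine *Pgls* was at 0.14 without control replicate 1. *G6pdx*, the NADPH-forming entry step, had 22.7 and 31.2 CPM in harmine, 32.2 and 28.0 CPM in *Dyrk1a* shRNA and 32.0 and 31.2 CPM in control libraries, with harmine replicate 1 the lowest of the libraries and harmine replicate 2 level with the lower control to the digits shown (log2 fold change -0.23 (SE 0.25), and -0.022 without harmine replicate 1). *Pgls*, which opens the lactone ring, had 76.6 and 69.7 CPM with harmine and 84.3 and 82.2 CPM with *Dyrk1a* shRNA, against 112 and 65.8 CPM in the controls, with controls so far apart that they enclosed all other libraries. *Pgd*, the second NADPH-forming enzyme, had 104 and 108 CPM in the harmine libraries, 124 and 137 CPM in the *Dyrk1a* shRNA libraries, and 132 and 132 CPM in the control libraries. Its replicates were close, and harmine lay below both other groups, with a log2 fold change of -0.31 (SE 0.18) against control (adjusted p = 0.928, edgeR), whereas *Dyrk1a* shRNA was -0.014 (SE 0.18) against control and 0.30 (SE 0.17) against harmine. *G6pdx* shares 418 exonic bases with *Ikbkg* on the opposite strand, and *Pgls* shares 776 with *Fam129c* on its own, so their counts carry that uncertainty.

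In the non-oxidative arm the genes went different ways. *Rpia*, whose isomerase makes ribose-5-phosphate for nucleotides, had 6.26 and 6.07 CPM in harmine, 6.90 and 7.66 CPM in *Dyrk1a* shRNA and 10.7 and 16.04 CPM in control libraries, the lowest level of the 33. All 4 treated libraries lay below both controls. Its log2 fold change was -1.08 (SE 0.38) with harmine (95% interval -1.89 to -0.28, adjusted p = 0.903, edgeR) and -0.84 (SE 0.38) with *Dyrk1a* shRNA (95% interval -1.64 to -0.033, adjusted p = 0.627), the smallest p of the 33 in both. These values rest on 17 to 26 counts per library, 17 and 19 of them in the 2 shallow controls, and without control replicate 2 the log2 fold changes were -0.79 and -0.54. *Tkt*, transketolase, had 246 and 234 CPM with harmine and 314 and 249 CPM with *Dyrk1a* shRNA, against 239.8 and 174 CPM in the controls. It lay on the other side with *Dyrk1a* shRNA, at 0.44 (SE 0.20) against control (95% interval 0.013 to 0.87, adjusted p = 0.627, edgeR), and overlapped with the controls with harmine (0.21 (SE 0.20)). Its log2 fold change with *Dyrk1a* shRNA was 0.23 when control replicate 2 was left out, 0.27 when *Dyrk1a* shRNA replicate 1 was and 0.68 when control replicate 1 was. *Taldo1*, transaldolase, had 64.1 and 60.2 CPM in the harmine libraries, 60.5 and 64.0 CPM in the *Dyrk1a* shRNA libraries, and 79.1 and 53.2 CPM in the control libraries, with the controls enclosing all other libraries.

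*Rpe*, the epimerase between ribulose-5-phosphate and xylulose-5-phosphate, had 59.9 and 61.5 CPM in harmine, 50.6 and 42.4 CPM in *Dyrk1a* shRNA and 52.1 and 68.4 CPM in control libraries. *Dyrk1a* shRNA lay below both other groups, with a log2 fold change of -0.39 (SE 0.20) against harmine, the smallest p of the 33 in that comparison (adjusted p = 0.859, edgeR), and -0.37 (SE 0.22) against control, while harmine was at 0.024 (SE 0.21). Against control the value was -0.17 without control replicate 2, -0.25 without *Dyrk1a* shRNA replicate 2 and -0.57 without control replicate 1. *Rpe* shares 558 exonic bases with *Kansl1l* on the opposite strand and took 83.9 to 90.9% of the counts of the pair. Its transcript was the poorest in G and C of the 33, 39.1%, where that of *Tkt* held 54.0%. The last 150 coding bases of both (GENCODE transcripts on GRCm38, G and C in capitals) are set side by side because these genes lay on opposite sides of 0 in the *Dyrk1a* shRNA comparison within the same arm of the pathway and differ in composition.
Rpe (chr1:66700831-66719805, plus strand, coding bases 556 to 705): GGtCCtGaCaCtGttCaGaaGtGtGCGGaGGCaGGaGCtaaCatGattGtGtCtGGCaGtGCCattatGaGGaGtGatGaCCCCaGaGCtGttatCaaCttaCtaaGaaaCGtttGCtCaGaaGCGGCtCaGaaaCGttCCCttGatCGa
Tkt (chr14:30548359-30574720, plus strand, coding bases 1720 to 1869): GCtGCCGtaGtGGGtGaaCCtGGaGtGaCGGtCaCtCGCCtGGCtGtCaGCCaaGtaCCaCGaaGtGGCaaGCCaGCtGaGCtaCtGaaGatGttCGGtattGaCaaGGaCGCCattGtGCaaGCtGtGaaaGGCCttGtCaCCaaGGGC
G and C made up 49.3% of this window of *Rpe* and 56.7% of that of *Tkt*, and 51.2% and 56.9% of their whole coding sequences, so the transcripts differed more outside the coding sequence than within it.

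**Figure D3:**
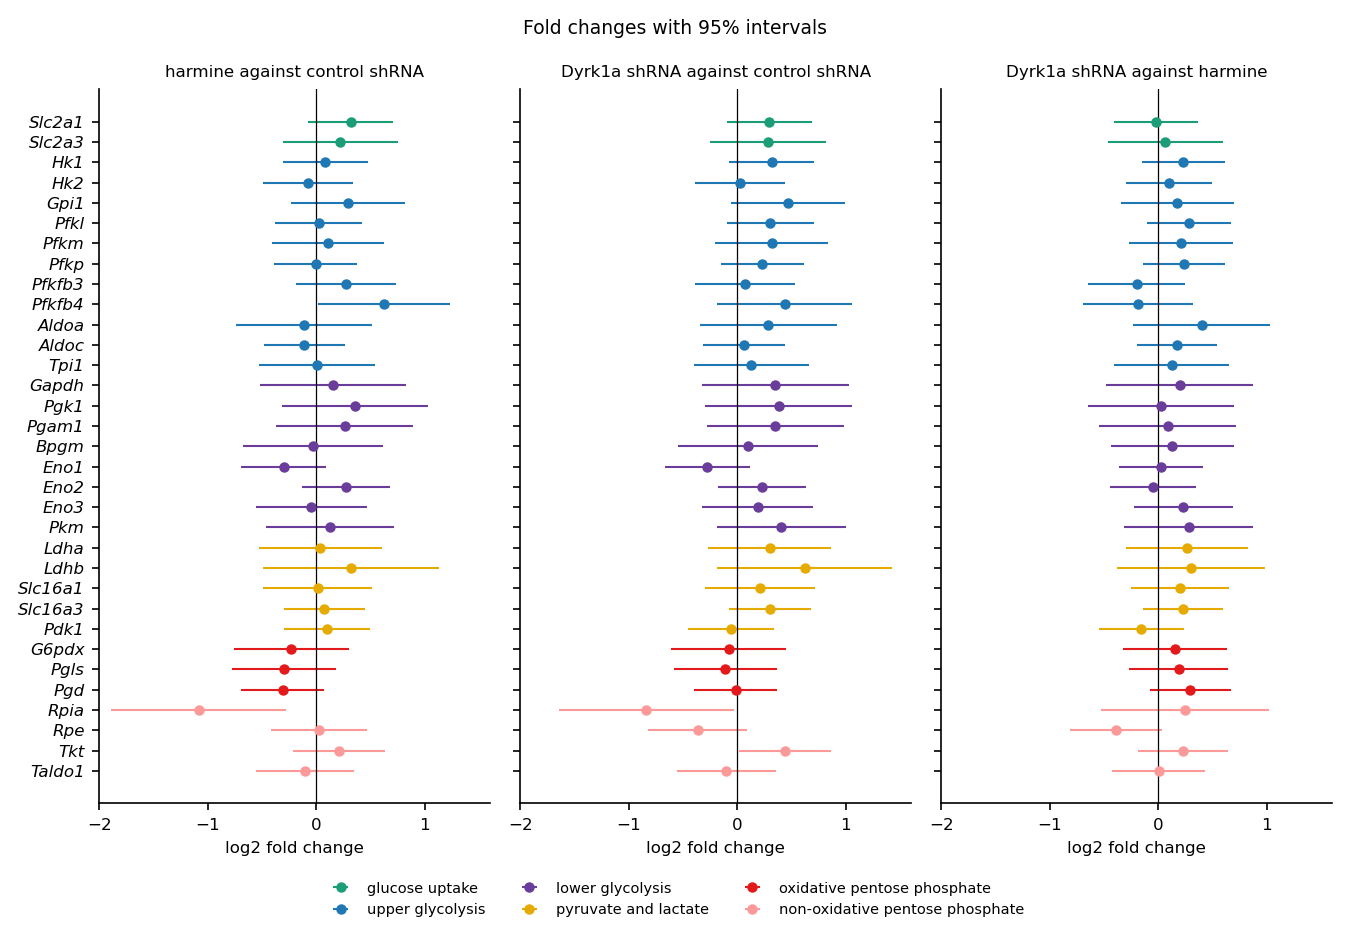
Log2 fold changes of the 33 genes (points) with 95% intervals (lines) in the 3 comparisons, from glucose uptake at the top to the non-oxidative pentose phosphate arm at the bottom. The intervals excluded 0 for 2 genes with harmine (*Pfkfb4* and *Rpia*), for 2 with *Dyrk1a* shRNA (*Tkt* and *Rpia*) and for none between *Dyrk1a* shRNA and harmine, before any adjustment.

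With 2 libraries a group, the precision was limited. For harmine against control *Gapdh*, with 7323 to 25964 counts per library, had an SE of 0.32. *Slc16a3*, with 324 to 1132 counts, had an SE of 0.18. What set the size of these errors was not tested. The 95% intervals reached a median of 0.50 to either side on the log2 scale for harmine against control, 0.51 for *Dyrk1a* shRNA against control and 0.45 for *Dyrk1a* shRNA against harmine. In the *Dyrk1a* shRNA comparison 29 of the 33 intervals ended below 1 and 32 began above -1. A rise of 2-fold thus lay outside the interval of most genes. How far smaller rises did so differed by gene: the upper end was 0.44 for *Hk2* and 1.43 for *Ldhb*. In data simulated for that comparison over 10607 genes the test found 48.6% of those altered by 2-fold and 93.9% of those altered by 4-fold. The simulation drew all groups with the same dispersion, taken from a trend over genes. In the data the control replicates differed more than those of the other groups, so these shares do not give the power in these data. The 33 genes differed between replicates by a median of 0.19 (log2) in the harmine group, 0.19 in the *Dyrk1a* shRNA group and 0.17 in the controls, where all tested genes differed by 0.20, 0.21 and 0.36. At an unadjusted p under 0.05, 9 of the 33 genes (27.3%) differed between *Dyrk1a* shRNA and control without control replicate 1, beside 8.74% of all genes tested in that fit. Without control replicate 2 there were 7 (21.2%, beside 16.7% of all) in this comparison and 4 (12.1%, beside 13.2%) between harmine and control. Adjustment over all genes left none of these, with 0.0612 as their lowest adjusted p (edgeR, harmine against control without control replicate 2).

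GC content moved with the *Dyrk1a* shRNA comparisons across the whole table. Over 10530 tested genes with an annotated transcript, Spearman's rho between GC content and log2 fold change, given as a description across genes that are not independent, was 0.34 for *Dyrk1a* shRNA against control and 0.42 for *Dyrk1a* shRNA against harmine, but 0.002 for harmine against control. Taken library by library against the mean of all 6, rho was -0.26 and -0.068 with harmine and 0.28 and 0.36 with *Dyrk1a* shRNA, against -0.035 and -0.22 in the controls. The *Dyrk1a* shRNA libraries were thus the only ones in which it was above 0. The median log2 fold change of all genes in the *Dyrk1a* shRNA comparison was -0.24 in the decile of lowest GC content and 0.17 in the decile of highest. The pathway genes were rich in G and C, with a median of 53.5% (range 39.1 to 65.9%) against 49.97% over all tested genes, and 26 of the 33 lay above that median. Over the 33 genes rho was -0.079 with harmine, 0.24 with *Dyrk1a* shRNA and 0.33 for *Dyrk1a* shRNA against harmine.

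Set beside genes of like composition, the pathway genes stood less far from 0. With *Dyrk1a* shRNA the median gene of their own GC deciles had a log2 fold change of 0.071, against 0.23 for the 33 genes, and 25 of the 33 lay above the median of their own decile. Removal of a smooth trend with GC content from each library took the median of the 33 to 0.15 for *Dyrk1a* shRNA against control and to 0.092 for *Dyrk1a* shRNA against harmine, and left it at 0.043 for harmine against control. With the trend of transcript length removed as well, the medians were 0.092, 0.079 and 0.039, and 23, 25 and 18 of the 33 genes remained above 0. For *Rpe*, the log2 fold change of -0.37 with *Dyrk1a* shRNA became -0.18, and that of -0.39 against harmine became -0.12. That of *Tkt* with *Dyrk1a* shRNA became 0.23 and that of *Slc2a1* 0.091, whereas *Rpia*, with a GC content of 51.9%, stayed at -1.08 with harmine and -0.83 with *Dyrk1a* shRNA. None of the 33 passed the adjusted threshold after either removal. What the GC trend came from was not tested.

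**Figure D4:**
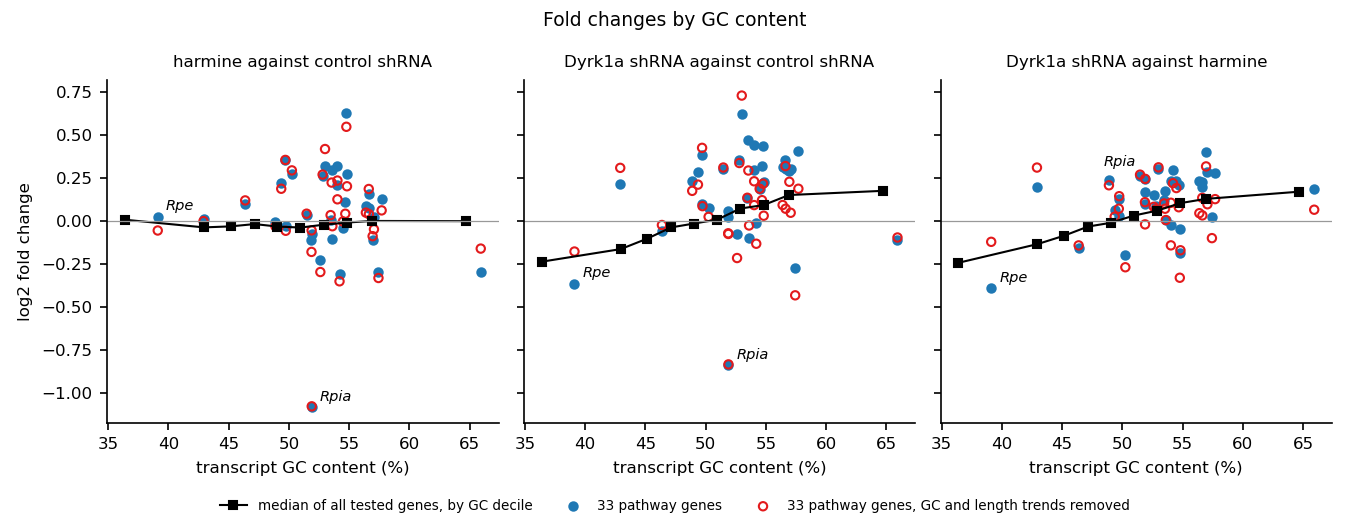
Log2 fold change against transcript GC content (%) for the 33 genes before (filled blue) and after removal of GC and length trends (open red), with the median of all tested genes in each decile of GC content (black squares, placed at the middle of its range). The black line was flat for harmine and sloped upwards in both *Dyrk1a* shRNA comparisons, where *Rpe*, the gene of lowest GC content, moved towards 0.

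Within the group, levels spanned a wide range. By median CPM per kilobase over the 6 libraries, *Gapdh* (4926) and *Pgk1* (3918) were followed by *Aldoa*, *Pgam1*, *Pkm*, *Ldha* and *Tpi1* between 1717 and 904, then by *Gpi1* (423) and *Slc2a3* (379). At the other end stood *Bpgm* (8.31), *Slc16a1* (8.20), *Pfkfb4* (5.72) and *Rpia* (3.98), 1237-fold below *Gapdh*. The pentose phosphate genes lay between 75.3 for *Tkt* and 3.98 for *Rpia*, with *G6pdx* at 11.8. Of lower glycolysis, *Gapdh*, *Pgk1*, *Pgam1*, *Pkm*, *Eno2* and *Eno1* had higher medians than all of them, although *Eno1* (92.5) overlapped with *Tkt*, and *Eno3* (19.9) and *Bpgm* (8.31) fell among them. Of the 32 pairs of neighbours in this order, 27 overlapped between their lowest and highest library, and the clear gaps were those below *Pgk1*, *Tpi1*, *Slc2a3*, *Eno2* and *Slc16a3*. The place of *Eno1*, its overlap with *Tkt* and the gap below *Eno2* rest on the reads assigned to *Eno1* alone, 157 to 213 CPM. Together with *Gm5506* it had 1686 to 2317 CPM, so its rank is uncertain. *Gapdh*, *Pgk1*, *Pgam1* and *Pkm* also had near-identical copies, most of them absent from the counted genes. The part of those copies in the levels of these genes was not tested. The main isozyme of a step held a similar share in every library for *Hk1*, with 76.0 to 81.7% of the hexokinases, *Pfkp*, with 48.6 to 52.0% of the phosphofructokinases, *Aldoa*, with 95.2 to 97.0% of the aldolases, and *Slc16a3*, with 88.0 to 90.9% of the lactate carriers. Of the minor isozymes *Pfkm* made up 13.2 to 19.4% of the phosphofructokinases. *Pfkfb4* made up 9.02 to 14.9% of its pair with *Pfkfb3*, and *Ldhb* 0.726 to 1.61% of lactate dehydrogenase. In a pair both shares shift by the same amount, so the smaller always varies more in proportion to its level. The share of *Eno1* among the enolases was 31.8 and 33.6% with harmine and 34.9 and 31.7% with *Dyrk1a* shRNA, against 42.4 and 40.4% in the controls, with the uncertainty of its copy.

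Other genes of the same metabolism, from lists outside the 33, gave no call at an adjusted p of 0.05 in any comparison with all libraries in the fit and low counts filtered. Of 14 tested glycolytic and transporter genes 11 lay above 0 with harmine and 7 with *Dyrk1a* shRNA. *Adpgk*, an ADP-dependent glucokinase, had 109 and 166 CPM with harmine and 59.0 and 101 CPM with *Dyrk1a* shRNA, against 62.8 and 89.5 CPM in the controls, a log2 fold change of 0.87 (SE 0.29) with harmine and -0.77 (SE 0.27) for *Dyrk1a* shRNA against harmine, and passed with harmine where low counts were not filtered (adjusted p = 0.0272, edgeR). *Slc2a8*, the gene of the intracellular transporter GLUT8, was highest with *Dyrk1a* shRNA, at 0.69 (SE 0.25) against control. Of 16 tested genes of pyruvate and lactate transport, 9 lay above 0 with harmine and 8 with *Dyrk1a* shRNA. *Mpc2*, one subunit of the mitochondrial pyruvate carrier, had 29.8 and 33.5 CPM in the harmine libraries, 21.1 and 27.7 CPM in the *Dyrk1a* shRNA libraries, and 52.7 and 40.5 CPM in the control libraries, so that both treatments lay below both controls, with log2 fold changes of -0.57 (SE 0.23) for harmine and -0.94 (SE 0.24) for *Dyrk1a* shRNA (adjusted p = 0.612, edgeR). Its partner subunit *Mpc1* was also lower with *Dyrk1a* shRNA, at -0.55 (SE 0.22), and overlapped with the controls with harmine. Without control replicate 2, which left 1 control library, the log2 fold changes in the *Dyrk1a* shRNA comparison were -1.09 for *Mpc2* and -0.82 for *Mpc1*. Among 11 tested genes around the pentose phosphate pathway, 4 lay above 0 with harmine and 5 with *Dyrk1a* shRNA. Of these, *Prps2*, which turns ribose-5-phosphate into the nucleotide precursor PRPP, had 56.6 and 46.5 CPM in harmine, 53.6 and 44.2 CPM in *Dyrk1a* shRNA and 26.4 and 38.0 CPM in control libraries, above both controls in both treatments (log2 fold change 0.70 (SE 0.24) with harmine and 0.62 (SE 0.25) with *Dyrk1a* shRNA).

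Of the upstream regulators, *Myc* had log2 fold changes of -0.27 (SE 0.21) with harmine and -0.13 (SE 0.21) with *Dyrk1a* shRNA, and *Hif1a* of 0.0051 (SE 0.24) and -0.26 (SE 0.24) in the same order, with overlap against the controls. Of 23 tested hypoxia-inducible factor genes and responders outside the pathway, 17 lay above 0 and 6 below with harmine, with a median of 0.14. With *Dyrk1a* shRNA 17 lay above 0 and 6 below, with a median of 0.17, and 8 lay above 0 for *Dyrk1a* shRNA against harmine. Among them *Ddit4*, whose product restrains mTORC1, had 557 and 522 CPM with harmine and 496 and 527 CPM with *Dyrk1a* shRNA, against 389.8 and 365 CPM in the controls. Its log2 fold changes were 0.51 (SE 0.20) for harmine and 0.44 (SE 0.20) for *Dyrk1a* shRNA. *Fam162a* had 994 and 871 CPM with harmine and 809 and 740 CPM with *Dyrk1a* shRNA, against 1375 and 698 CPM in the controls. *Higd1a* had 270 and 262 CPM with harmine and 219 and 189 CPM with *Dyrk1a* shRNA, against 404 and 138 CPM in the controls. For both of these genes the controls enclosed all other libraries. Of 16 tested regulators of glucose metabolism, 7 lay above 0 with harmine and 9 with *Dyrk1a* shRNA. *Stk11*, the gene of the kinase LKB1 upstream of AMPK, was above both other groups with *Dyrk1a* shRNA, by 0.57 (SE 0.20) against control and 0.63 (SE 0.19) against harmine (adjusted p = 0.689, edgeR). *Akt2* was at 0.53 (SE 0.19) against control with *Dyrk1a* shRNA, and *Rptor*, a subunit of mTORC1, at 0.62 (SE 0.26) with harmine. Without control replicate 2, which left 1 control library, the log2 fold changes for *Dyrk1a* shRNA against control were 0.81 for *Stk11* and 0.66 for *Akt2*.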

How the data were processed

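RNA of 6 libraries, 2 per group, was isolated on oligo-dT beads, copied from poly-dT primers, tagmented with Nextera, which does not mark the strand, and read on a MiSeq. The authors aligned reads to mm10 (TopHat2 2.0.13 in the submitters' processing notes) and deposited RSEM expected counts per gene over known transcripts, without normalization; the versions of RSEM and of the annotation are not given in the sources used here. Sample labels gave the library of every column, with 0 columns left over.

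Rounded counts were fitted by the robust quasi-likelihood method of edgeR 4.0.16 (R 4.3.3), with TMM scaling, on the 10607 genes that filterByExpr kept at a minimum of 10 counts. All 6 libraries entered 1 fit of 3 group means, tests were two-sided, and p-values were adjusted by Benjamini-Hochberg with a threshold of 0.05. CPM are scaled by TMM, standard errors are the size of the log2 fold change over the root of F, and lists are described by counts and medians only. Replicates differed beyond sampling noise (chi-square over its degrees of freedom 4.03 for harmine, 3.77 for *Dyrk1a* shRNA and 11.5 for control). GC content and length are those of the longest protein-coding transcript of GENCODE M21 (GRCm38, the assembly of mm10), where 98.4% of symbols matched. Trends were removed as offsets from natural splines with 4 degrees of freedom. Copies were sought by name and with blastn 2.17.0 (at least 95% identity over 200 bases). Only copies among the counted genes could be summed with their member, and most copies found were not among them. The test was tested on simulated data, with 200 changed genes in each of 5 sets.

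Values per library are given for the 5 genes of smallest unadjusted p in each comparison and for the gene with most counts of each step. Of each other list up to 2 genes per comparison were named by smallest p, some by log2 fold change only. *Myc* and *Hif1a* were named whatever their p. *Fam162a* and *Higd1a*, whose controls enclosed all other libraries, are given as well. The 33 genes and the lists were chosen with earlier results of these data known. Alternatives were scaling by library size, size factors from DESeq2 1.42.0, its Wald test, a minimum of 50 counts or none, a block for replicate number, fitting the compared pair alone, GC and length trends removed, sums with copies, thinning to the smallest library, and leaving out each library in turn.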

Additional observations from a re-analysis of the deposited data

How the results depend on the processing

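None of the 33 genes was called under any alternative in any comparison. With all libraries kept, *Adpgk* was the one named gene of other lists that was called, with harmine and without a filter (adjusted p = 0.0272, edgeR). For *Mpc1*, *Mpc2*, *Stk11* and *Akt2* the fit with 1 control library left is given above by effect size only. The median log2 fold change of the 33 genes for *Dyrk1a* shRNA against control (0.23) became 0.15 with the GC trend removed, 0.092 with GC and length trends removed and 0.091 with the replicate block added to both, and 0.14 to 0.27 when 1 library was left out. For *Dyrk1a* shRNA against harmine (0.17) these values were 0.092, 0.079 and 0.078, and 0.043 to 0.21. Both lowest values came without *Dyrk1a* shRNA replicate 1. The cause was not tested, apart from the removal of the trends itself. For harmine against control the median stayed between 0.029 and 0.074 under all alternatives. Whether replicate numbers paired the libraries is uncertain, since 2 replicates a group cannot settle it. Correlations of same-numbered deviations were all above 0, at 0.24, 0.12 and 0.021. With the replicate block 0 of the 33 genes were called. Of all genes 0, 2 and 0 were called for harmine against control, *Dyrk1a* shRNA against control and *Dyrk1a* shRNA against harmine, against 1, 2 and 1 without it. Without control replicate 2, 291 genes of the table were called with harmine and 439 with *Dyrk1a* shRNA, where the remaining control is assumed to vary like the other groups. Without a filter 20, 28 and 22 genes of the table were called in the 3 comparisons, none of them among the 33. Of single-gene values and medians, 29 counted as moved with all libraries kept, and 37 with 1 left out. A single gene counted as moved when its log2 fold change shifted by at least its standard error. Medians were held against the spread between replicates. The genes of smallest p in each comparison were judged only by their sign and call, so shifts in their size are not counted. A minimum count of 50 left 32 of the 33 genes. The control libraries, with 1743428 and 1096345 counts, held few counts of genes such as *Rpia*, *Pfkfb4*, *Ldhb* and *Bpgm*.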
